A study of Mus musculus with 12 samples.

Results

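The homing and niche adhesion genes described here are 10 surface-protein genes chosen by name, Cxcr4, Itga4, Itgb1, Itga6, Itgal, Vcam1, Selplg, Cd44, Robo4 and Cd47, and all 10 were found among the 53465 genes of the expression table. They were measured by bulk RNA-seq in LSKs, the Lin- Sca-1+ c-Kit+ fraction of mouse bone marrow (BM) that holds hematopoietic stem cells (HSCs) and multipotent progenitors. The 4 groups, with 3 libraries each, were untreated Tespa1+/+ mice, untreated Tespa1-/- mice, and both genotypes on day 9 after a single intraperitoneal dose of 150 mg/kg 5-fluorouracil (5-FU), an antimetabolite that kills cycling cells. The mice were males of 8 to 10 weeks on a C57BL/6 background. The knockout was germline, so that Tespa1 was altered in every tissue and not in HSCs alone, and the Tespa1+/+ mice were littermates. Nothing in the sources used here says whether a library was made from 1 mouse or from a pool, and the p-values measure the spread between these libraries, which may be technical.

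HSCs reach the BM from the blood by rolling on and then sticking to the vessel wall, crossing it, and being held in their niche. PSGL-1, encoded by Selplg, and CD44 carry the sugars that selectins bind during rolling. Integrins, each an α with a β chain, give firm adhesion: Itga4 with Itgb1 encodes the receptor for VCAM-1 and fibronectin, Itga6 with Itgb1 a laminin receptor, and Itgal the α chain of LFA-1, which binds ICAM-1. CXCR4 senses the niche chemokine CXCL12, ROBO4 is a guidance receptor of endothelium and HSCs, and CD47 is the signal that restrains engulfment by macrophages. VCAM-1 is known as the integrin ligand on endothelium, stroma and marrow macrophages, and is also carried by some hematopoietic cells. The study compared the LSKs of both genotypes at rest and in regeneration after 5-FU, and these genes address what changed in the transcripts for homing and retention.

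Total counts ran from 22118154 to 28275079 per library (median 23401715), so that 3 counts, taken as the limit of detection, were 0.106 to 0.136 CPM, the counts scaled to library size. This limit covers counting error only. Tespa1 itself was lower in Tespa1-/- LSKs but was not absent: it lay at 43.0 to 49.8 CPM in untreated Tespa1+/+ libraries, 34.5 to 34.9 CPM in untreated Tespa1-/- libraries, 47.2 to 57.5 CPM in Tespa1+/+ libraries after 5-FU, and 17.3 to 20.8 CPM in Tespa1-/- libraries after 5-FU. Kit, Ly6a, Cd34 and 5 other LSK genes were present in every group, with summed levels of 1929 to 1966, 1929 to 1974, 2110 to 2181 and 1810 to 1882 CPM in the same order. Of these 8, 4 were called lower in Tespa1-/- LSKs after 5-FU, Ly6a (log2 fold change -1.24), Cd34 (-0.78), Kit (-0.45) and Runx1 (-0.34), and none higher, while Myb, which made up the largest part of the sum, was at 804 and 805 CPM. Genes of other cell types moved with the groups. Summed neutrophil markers lay at 2305 to 2400 CPM in Tespa1+/+ and 3166 to 3317 CPM in Tespa1-/- libraries untreated, and at 2195 to 2395 and 4784 to 5126 CPM after 5-FU. Mpo and Elane, genes of early granulocyte progenitors, carried most of this sum, with Mpo at 2293, 3119, 2163 and 3611 CPM over the 4 groups. The other 6, genes of later neutrophils such as S100a9, had means of 0 to 1.29 CPM in the first 3 groups and of 10.6 to 316 CPM in Tespa1-/- LSKs after 5-FU. Erythroid markers lay at 133 to 154 and 136 to 142 CPM untreated and at 217 to 240 and 621 to 673 CPM after 5-FU. Car2 carried most of that sum in the first 3 groups, at 136, 123 and 206 CPM beside 313 CPM in the last, while Hba-a1 had means of 2.35, 3.90, 3.03 and 130.3 CPM and Slc4a1 of 0.134, 0.336, 0.288 and 93.7 CPM. All 8 neutrophil and all 8 erythroid markers tested were called higher in the Tespa1-/- libraries after 5-FU. B-cell markers ran at 64.1 to 77.1 and 42.2 to 48.2 CPM untreated and 287 to 299 and 327 to 344 CPM after 5-FU, and those of multipotent and lymphoid-primed progenitors at 2157 to 2236, 1853 to 1881, 1244 to 1270 and 871 to 899 CPM over the 4 groups. The part of these shifts in the differences below was not tested. In bulk RNA, fewer cells of a type and less RNA per cell cannot be told apart.

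Levels of different genes were compared per length, in FPKM, the fragments per kilobase of transcript scaled to sequencing depth. Cd47 was the most abundant member in all 4 groups, at 71.0 ± 3.86, 61.4 ± 0.839, 66.6 ± 0.984 and 59.4 ± 2.09 FPKM (SD, n = 3) in the order Tespa1+/+ untreated, Tespa1-/- untreated, Tespa1+/+ after 5-FU and Tespa1-/- after 5-FU. Itgb1, Itga4, Cxcr4 and Selplg formed a band between 20.8 and 35.3 FPKM in every group. In untreated Tespa1+/+ LSKs the levels of Cd44, Cxcr4, Itga4 and Selplg could not be placed in order, because each overlapped the gene above it. Cd44 sat inside this band in untreated LSKs at 28.3 ± 3.01 and 21.4 ± 1.97 FPKM and below it after 5-FU at 13.3 ± 0.695 and 12.1 ± 1.16 FPKM. Itgal stayed between 11.04 and 12.6 FPKM. Itga6 was the 8th of the 10 in every group. Robo4 and Vcam1 were the rarest members, and they exchanged places in a single group. Vcam1 was last in the other 3 groups at 0.283 to 0.323 FPKM, while in Tespa1-/- LSKs after 5-FU it reached 1.74 ± 0.323 FPKM and Robo4 was last at 0.627 ± 0.0886 FPKM.

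**Figure D1:**
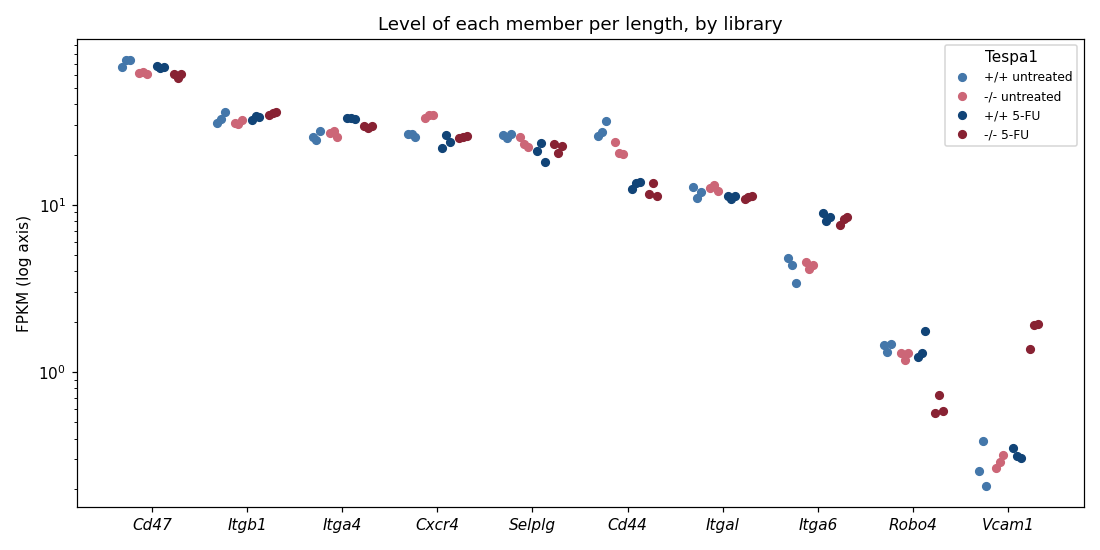
FPKM of the 10 members in each of the 12 libraries, on a log axis, with genes ordered by their mean and colours for genotype and treatment. Cd47 is highest in every group, and the Vcam1 points of Tespa1-/- libraries after 5-FU stand above the Robo4 points of the same libraries.

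Each comparison was tested with edgeR's quasi-likelihood test over all genes with enough counts, and a gene was called at a Benjamini-Hochberg adjusted p below 0.05. All 10 members could be tested in every comparison. Between untreated Tespa1-/- and Tespa1+/+ LSKs, 3 members were called, beside 5.23% of all genes tested: Cxcr4 was higher, beside 1.64% of genes, and Cd44 and Cd47 were lower, beside 3.59%. After 5-FU, 3 members were called between the genotypes, beside 13.1% of all genes, with Vcam1 higher (7.34% of genes) and Robo4 and Itga4 lower (5.78%). No member was called in the same direction in both comparisons of genotypes. 5-FU in Tespa1+/+ LSKs moved 3 members, beside 7.95% of genes, with Itga6 and Itga4 up (3.77% of genes) and Cd44 down (4.18%). 5-FU in Tespa1-/- LSKs moved 6 members, beside 19.4% of genes, with Vcam1 and Itga6 up (10.7% of genes) and Robo4, Cd44, Cxcr4 and Itgal down (8.64%). The test of whether the genotype difference changed with 5-FU called 2 members, beside 5.01% of genes, Vcam1 with a higher difference (3.02% of genes) and Robo4 with a lower one (1.99%). These comparisons share libraries, so their counts are not independent of each other.

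The members moved in both directions. Between genotypes 5 were higher and 5 lower, by the sign of the fold change, in untreated LSKs and again after 5-FU, while with 5-FU 3 were higher and 7 lower in Tespa1+/+ LSKs and 4 higher and 6 lower in Tespa1-/- LSKs. Their median log2 fold change between genotypes was -0.03 untreated and -0.01 after 5-FU, beside 0.01 and -0.01 for all genes. With 5-FU it was -0.09 in both genotypes, beside 0.01 in Tespa1+/+ and -0.01 in Tespa1-/- LSKs for all genes. Groups whose libraries did not overlap were seen for 4 members between the untreated genotypes, beside 25.6% of genes, and for 5 members between the genotypes after 5-FU, beside 33.0% of genes. With 5-FU they were 7 members in Tespa1+/+ LSKs, beside 28.5% of genes, and 9 members in Tespa1-/- LSKs, beside 38.6% of genes. Under the looser p but stricter size used in the study (more than 1.5-fold with P below 0.05 before adjustment), the members passing were 0 between untreated genotypes, where the 3 called by edgeR and by DESeq2 had smaller folds, beside 6.74% of genes, and 2 after 5-FU, Vcam1 and Robo4, beside 11.7% of genes. The same thresholds were passed by Cd44 and Itga6 with 5-FU in Tespa1+/+ LSKs (9.88% of genes) and by Vcam1, Robo4, Itga6 and Cd44 in Tespa1-/- LSKs (14.4% of genes).

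**Figure D2:**
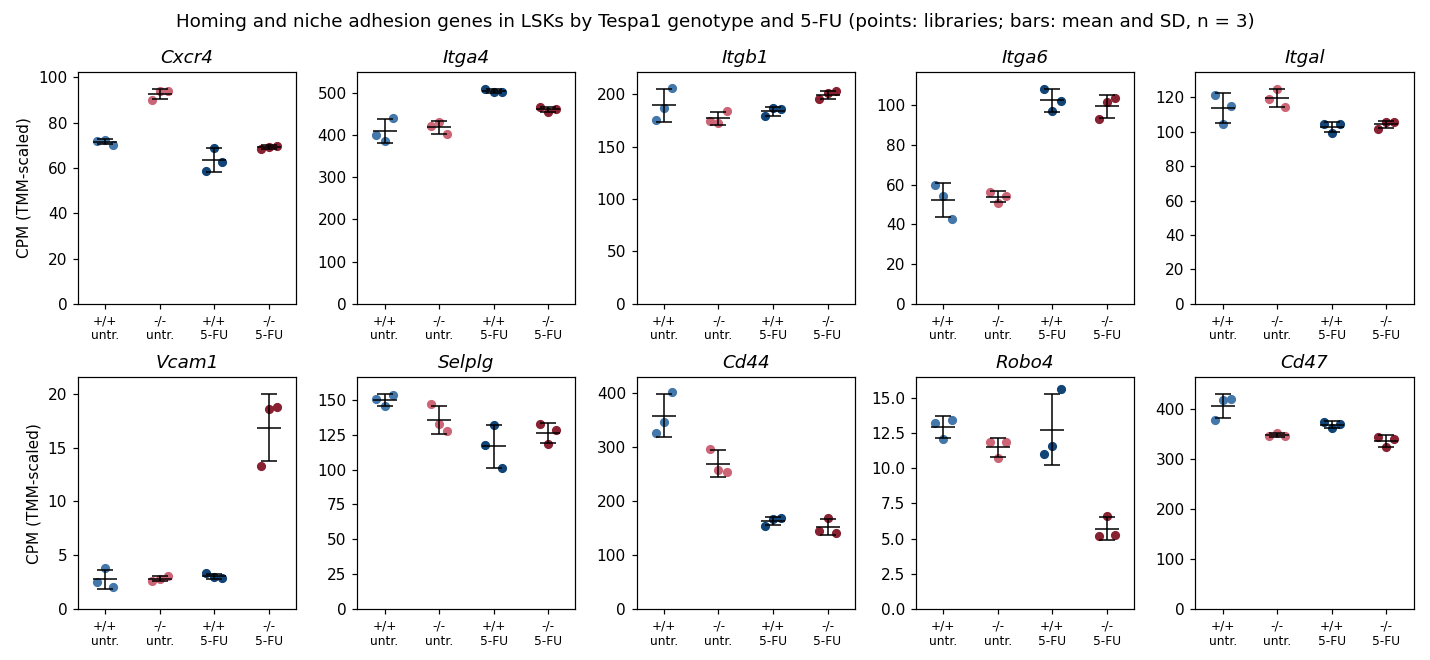
Each panel shows 1 member, with TMM-scaled CPM in each of the 12 libraries as points and the mean and SD of each group of 3 as bars, on axes that start at 0. The 3 Vcam1 values of Tespa1-/- LSKs after 5-FU, 13.3 to 18.7 CPM, lie above all 9 others, and the 3 Robo4 values of that group, 5.15 to 6.63 CPM, lie below all 9 others.

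**Figure D3:**
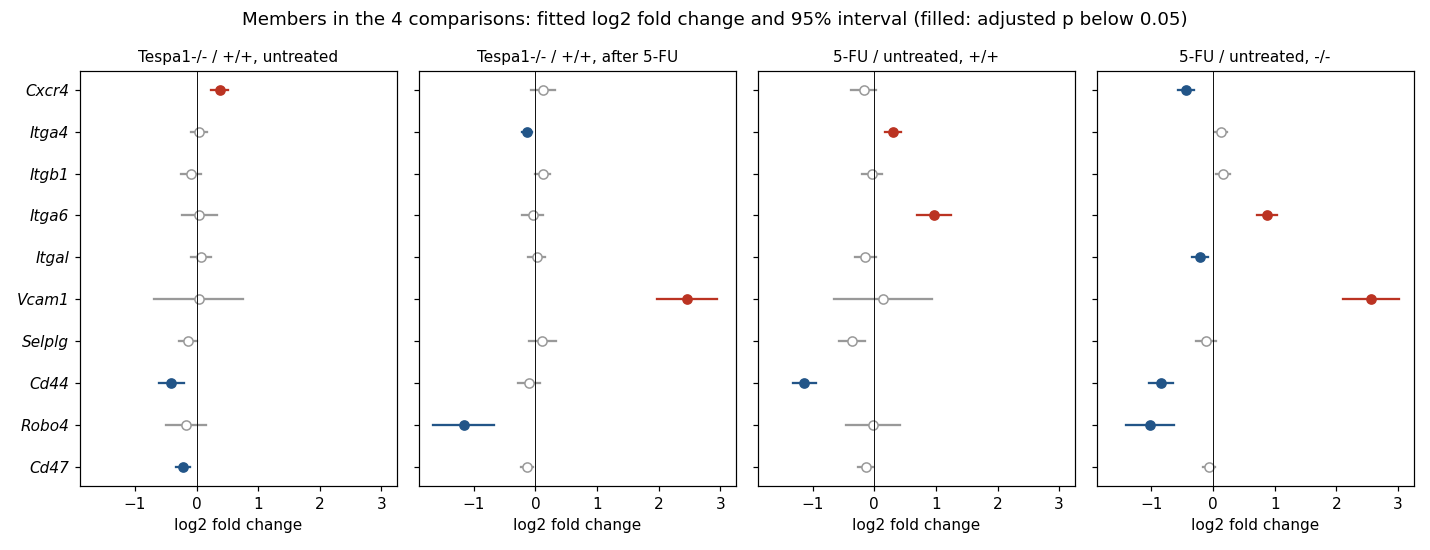
Fitted log2 fold change of each member (point) with its 95% interval (line) in the 4 pairwise comparisons, filled where the adjusted p is below 0.05, red for higher and blue for lower. Vcam1 and Robo4 depart from 0 where Tespa1-/- LSKs after 5-FU are compared, and Cd44 and Itga6 depart from 0 with 5-FU in both genotypes.

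Vcam1, the integrin ligand, lies at chr3:116109949-116129688 of GRCm38 on the minus strand. Its levels were 2.50, 3.78 and 2.04 CPM in untreated Tespa1+/+ libraries and 2.59, 2.79 and 3.10 CPM in untreated Tespa1-/- libraries. After 5-FU they were 3.31, 2.97 and 2.89 CPM in Tespa1+/+ and 13.3, 18.6 and 18.7 CPM in Tespa1-/- libraries. The first 3 groups overlapped, and the last stood apart from all of them. In counts, the Tespa1-/- libraries after 5-FU held 363 to 479 Vcam1 reads and the other 9 libraries 45 to 85. After 5-FU the transcript was 5.49-fold higher in Tespa1-/- than in Tespa1+/+ LSKs (log2 fold change 2.46, SE 0.22, edgeR adjusted p = 1.19e-04, 95% interval 3.92- to 7.69-fold), which placed it 138th of 17239 genes by p. Within Tespa1-/- LSKs, 5-FU raised it by 2.56 on the log2 scale (SE 0.20, edgeR adjusted p = 5.04e-05). Within Tespa1+/+ LSKs the difference with 5-FU was 0.14 with a 95% interval of -0.65 to 0.93, and between untreated genotypes it was 0.03 with an interval of -0.68 to 0.75. Both of these comparisons hold the untreated Tespa1+/+ libraries, whose Vcam1 levels had a CV of 32.5%, beside 9.06% in untreated Tespa1-/- LSKs and 7.37% in Tespa1+/+ LSKs after 5-FU. The genotype difference after 5-FU exceeded that without it by 2.43 (SE 0.35, edgeR adjusted p = 0.00125).

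Marrow macrophages and endothelium also express Vcam1, and their markers are given beside it. Summed over 8 macrophage markers the level was 4.80 to 9.78 CPM in untreated Tespa1+/+, 8.12 to 10.9 CPM in untreated Tespa1-/-, 6.20 to 9.94 CPM in Tespa1+/+ after 5-FU and 15.8 to 21.3 CPM in Tespa1-/- after 5-FU. Of these 8 markers, 1 was called higher in Tespa1-/- LSKs after 5-FU, Cd5l (means 0.0514 and 1.67 CPM, edgeR adjusted p = 0.0151), and none lower. With 5-FU in Tespa1-/- LSKs 3 were called higher, C1qa from 0.221 to 2.35 CPM (edgeR adjusted p = 0.0153), C1qb from 0.220 to 1.93 CPM (edgeR adjusted p = 0.0272) and Siglec1 from 0.558 to 2.16 CPM (edgeR adjusted p = 0.0391), and none lower. Adgre1, which encodes F4/80, had means of 0.806 CPM (Tespa1+/+) and 2.70 CPM (Tespa1-/-) after 5-FU and was not called (edgeR adjusted p = 0.105). Mrc1 made up the most of the sum in these 2 groups, at 2.29 and 5.69 CPM, and was not called (edgeR adjusted p = 0.0574). C1qc differed little between them (log2 fold change 0.207). Spic alone went the other way, by -0.512 between genotypes after 5-FU and -0.603 with 5-FU in Tespa1-/- LSKs, without a call. No macrophage marker was at 0 in all libraries of a group. The 8 endothelial markers summed to 121 to 127 CPM in Tespa1+/+ and 123 to 142 CPM in Tespa1-/- libraries after 5-FU. Of these, Vwf made up the most at 67.9 and 89.8 CPM and was called higher (edgeR adjusted p = 0.0194), Emcn was called lower at 6.10 and 2.84 CPM (edgeR adjusted p = 0.0223), and Cdh5, encoding VE-cadherin, was not called at 2.66 and 1.27 CPM. Over the 4 groups Vwf read 13.3, 16.2, 67.9 and 89.8 CPM, beside 3.21, 5.48, 24.8 and 35.8 CPM for the megakaryocyte marker Pf4. Whether the Vwf RNA came from endothelium was not tested. Stromal markers summed to 33.1 to 43.8 and 29.2 to 44.5 CPM, most of it Pdgfrb at 33.7 and 25.6 CPM. Col1a2 was at 4.16 and 7.51 CPM and Dcn at 0 in every library of both groups, and none of the 4 stromal markers that could be tested was called. The part of these cells, and of the neutrophil and erythroid markers above, in the Vcam1 difference was not tested.

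Robo4, the guidance receptor, lies at chr9:37401897-37415115 on the plus strand. Its levels were 13.2, 12.04 and 13.4 CPM in untreated Tespa1+/+ and 11.8, 10.7 and 11.9 CPM in untreated Tespa1-/- libraries. After 5-FU they were 10.995, 11.6 and 15.6 CPM in Tespa1+/+ and 5.15, 6.63 and 5.28 CPM in Tespa1-/- libraries. All 3 of the last group were below the 9 other libraries. After 5-FU Robo4 fell to 0.446 of its Tespa1+/+ level in Tespa1-/- LSKs (log2 fold change -1.16, SE 0.22, edgeR adjusted p = 0.00784). With 5-FU it changed by -1.02 in Tespa1-/- LSKs (SE 0.17, edgeR adjusted p = 0.00374) and by -0.02 in Tespa1+/+ LSKs, where the 95% interval ran from -0.45 to 0.41. The genotype difference changed with 5-FU by -0.99 (SE 0.25, edgeR adjusted p = 0.0399). This last call was lost without any 1 of 10 of the 12 libraries, all but the first Tespa1+/+ and the second Tespa1-/- library after 5-FU, with adjusted p from 0.0358 to 0.1001 over the 12, while both pairwise calls held without each library in turn. Robo4 is also a gene of HSCs and endothelium: the 10 LT-HSC markers summed to 337 to 365 CPM in Tespa1+/+ and 209 to 233 CPM in Tespa1-/- libraries after 5-FU, with 5 of 10 called lower and 1 higher. With 5-FU the sum of that list went from 212 to 223 CPM to 337 to 365 CPM in Tespa1+/+ LSKs (6 called higher, none lower). In Tespa1-/- LSKs it went from 167 to 188 CPM to 209 to 233 CPM (5 higher, 1 lower). The lower one was Fgd5 (log2 fold change -0.74, edgeR adjusted p = 0.0125). Of the 8 endothelial markers, 2 were called lower with 5-FU in Tespa1-/- LSKs, Cdh5 (log2 fold change -1.51, edgeR adjusted p = 0.00772) and Stab2 (-1.16, edgeR adjusted p = 0.00857), and 2 higher, Vwf (2.46) and Tek (1.68). The part of HSC and endothelial RNA in the Robo4 differences was not tested.

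The RefSeq promoter windows (GRCm38.p6, 250 bases before to 50 after the annotated start) held 6 of the 10 members, and those of Robo4 and Cd44 are printed. Robo4 is shown as the member with the smallest p after 5-FU that has a window, Vcam1 having none in that table, and Cd44, chosen after its values were seen, as the member that fell with 5-FU in both genotypes. Capitals mark matches to CACGTG, the E-box, to TGTGGT, a RUNX motif, or to AGGTCA, a nuclear receptor motif, searched on both strands.
Robo4, chr9:37401722-37402021, plus strand: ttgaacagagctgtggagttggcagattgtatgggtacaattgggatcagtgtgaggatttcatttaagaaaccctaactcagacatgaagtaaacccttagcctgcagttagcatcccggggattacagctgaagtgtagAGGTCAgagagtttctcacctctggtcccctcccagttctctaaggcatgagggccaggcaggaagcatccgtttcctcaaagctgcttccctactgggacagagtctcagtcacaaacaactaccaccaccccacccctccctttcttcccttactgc
Cd44, chr2:102901616-102901915, minus strand: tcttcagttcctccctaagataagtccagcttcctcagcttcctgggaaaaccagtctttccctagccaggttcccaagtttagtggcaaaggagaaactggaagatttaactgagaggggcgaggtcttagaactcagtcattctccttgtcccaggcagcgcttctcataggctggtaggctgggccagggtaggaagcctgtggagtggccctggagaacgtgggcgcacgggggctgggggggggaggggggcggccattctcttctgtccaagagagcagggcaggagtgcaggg
The Robo4 window held 1 match, AGGTCA starting 109 bases before the RefSeq start, and that of Cd44 held none. For Robo4 the RefSeq start lies downstream of the gene start given above. Among the 32851 windows, 16.3% held AGGTCA, 16.8% held TGTGGT and 7.15% held CACGTG, and no window of a member held more than 1 match. Of the other members, Itga4 held 1 TGTGGT match and the windows of Cxcr4, Itgb1 and Cd47 held none. The GC content was 50.3% for Robo4 and 58.0% for Cd44, beside a median of 52.7% over all windows.

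Cxcr4, the CXCL12 receptor (chr1:128588199-128592293, minus strand), was highest in untreated Tespa1-/- LSKs. The libraries read 72.1, 72.4 and 70.3 CPM in untreated Tespa1+/+, 90.1, 93.8 and 94.0 CPM in untreated Tespa1-/-, 58.5, 69.0 and 62.7 CPM in Tespa1+/+ after 5-FU, and 68.3, 69.4 and 69.8 CPM in Tespa1-/- after 5-FU. The untreated genotypes did not overlap, and those after 5-FU did. Untreated Tespa1-/- LSKs were 1.30-fold higher (log2 fold change 0.37, SE 0.06, edgeR adjusted p = 0.0104). Without the second or the third untreated Tespa1-/- library the adjusted p was 0.0665 or 0.0618. After 5-FU the difference was 0.12 with a 95% interval of -0.07 to 0.31. With 5-FU, Cxcr4 changed by -0.43 in Tespa1-/- LSKs (SE 0.06, edgeR adjusted p = 9.31e-04) and differed by -0.17 in Tespa1+/+ LSKs (interval -0.37 to 0.03). The change of the genotype difference with 5-FU was -0.25 (interval -0.46 to -0.04) and did not pass the correction (edgeR adjusted p = 0.177).

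Itga4, the α4 chain (chr2:79255426-79333123, plus strand), read 401, 386 and 441 CPM in untreated Tespa1+/+ and 422, 431 and 401 CPM in untreated Tespa1-/- libraries. After 5-FU it read 509, 502 and 501 CPM in Tespa1+/+ and 467, 455 and 461 CPM in Tespa1-/- libraries, 2 tight groups that did not overlap. 5-FU raised it by 0.30 on the log2 scale in Tespa1+/+ LSKs (SE 0.06, edgeR adjusted p = 0.0108, or 0.0511 without the first Tespa1+/+ library after 5-FU). In Tespa1-/- LSKs the difference was 0.13 (edgeR adjusted p = 0.0592), and it was called with DESeq2 and with library totals (adjusted p = 0.0497 and 0.0434). After 5-FU the Tespa1-/- level was 0.911 of that in Tespa1+/+ LSKs (log2 fold change -0.13, SE 0.04, edgeR adjusted p = 0.0480), and leaving out any 1 of the 6 libraries moved the adjusted p to between 0.0900 and 0.131. The gene overlaps Cerkl on the opposite strand, which had 38 to 141 counts per library against the 8682 to 13066 of Itga4.

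Itgb1, the β1 chain shared by α4 and α6 (chr8:128685654-128733200, plus strand), was called in none of the 5 tests. Its group means were 189 ± 15.7, 177 ± 6.18, 184 ± 4.36 and 199.8 ± 3.98 CPM in the order used above. The 3 Tespa1-/- libraries after 5-FU, at 195, 201 and 203 CPM, lay above the Tespa1+/+ ones, at 179, 187 and 186 CPM. The genotype difference after 5-FU was 0.11 with a 95% interval that included 0 (-0.0031 to 0.23), and the 5-FU difference in Tespa1-/- LSKs was 0.16 (edgeR adjusted p = 0.0503). The latter was called under 3 of the 7 other fits, with DESeq2, with library totals and with at least 10 counts in every library (adjusted p from 0.0342 to 0.101 over the 7).

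Itga6, the α6 chain (chr2:71745616-71858416, plus strand), rose with 5-FU in both genotypes and showed no call between them. It read 59.7, 54.2 and 42.7 CPM in untreated Tespa1+/+, 56.3, 51.0 and 54.2 CPM in untreated Tespa1-/-, 108, 96.8 and 102 CPM in Tespa1+/+ after 5-FU, and 93.0, 102 and 104 CPM in Tespa1-/- after 5-FU. All 6 libraries after 5-FU were above all 6 untreated ones. The rise was 1.96-fold in Tespa1+/+ LSKs (log2 fold change 0.97, SE 0.12, edgeR adjusted p = 0.00155) and 1.83-fold in Tespa1-/- LSKs (0.87, SE 0.07, edgeR adjusted p = 6.56e-05). The genotypes differed by 0.05 untreated (interval -0.23 to 0.33) and by -0.05 after 5-FU (interval -0.21 to 0.12), and their responses by -0.09 (interval -0.41 to 0.23).

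Itgal, the α chain of LFA-1 (chr7:127296260-127335138, plus strand), varied little, with group means of 114 ± 8.58, 120 ± 5.24, 103 ± 2.77 and 104 ± 2.15 CPM. With 5-FU its log2 fold change was -0.21 in Tespa1-/- LSKs (SE 0.06, edgeR adjusted p = 0.0300), a call lost without any 1 of 5 of the 6 libraries, all but the third untreated Tespa1-/- library (adjusted p from 0.0413 to 0.115 over the 6). In Tespa1+/+ LSKs the difference was -0.15 with an interval of -0.32 to 0.03. Its partner chain Itgb2 did move, from 31.3 ± 8.92 CPM in Tespa1+/+ to 95.1 ± 8.09 CPM in Tespa1-/- LSKs after 5-FU. That difference in Itgb2 was 3.03-fold (edgeR adjusted p = 6.68e-04), while the 95% interval for Itgal in the same comparison was 0.920- to 1.11-fold. Itgb2 is shared with the α chains of neutrophils and macrophages, and neutrophil markers moved with it, Mpo from 2163 to 3611 CPM, S100a9 from 1.29 to 316 CPM and Ngp from 1.25 to 250.5 CPM. Their part in it was not tested.

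Cd44, the hyaluronan receptor (chr2:102811141-102901665, minus strand), showed the largest loss with 5-FU among the members in Tespa1+/+ LSKs. It read 326, 346 and 402 CPM in untreated Tespa1+/+ and 297, 257 and 253 CPM in untreated Tespa1-/- libraries. After 5-FU it read 154, 166 and 169 CPM in Tespa1+/+ and 145, 169 and 142 CPM in Tespa1-/- libraries. The untreated groups did not overlap each other or either treated group, and the treated groups overlapped. With 5-FU the log2 fold change was -1.14 in Tespa1+/+ LSKs (SE 0.08, edgeR adjusted p = 6.75e-05), 51st of 17002 genes by p, and -0.84 in Tespa1-/- LSKs (SE 0.09, edgeR adjusted p = 2.56e-04). Untreated Tespa1-/- LSKs held 0.753 of the Tespa1+/+ level (log2 fold change -0.41, SE 0.09, edgeR adjusted p = 0.0374). Leaving out the second or the third Tespa1+/+ library gave an adjusted p of 0.0819 or 0.0720, and leaving out the second or the third Tespa1-/- library gave 0.163 or 0.155. After 5-FU the genotype difference was -0.11 (interval -0.28 to 0.07). The difference between the 2 responses, 0.31 (interval 0.03 to 0.58), did not pass the correction (edgeR adjusted p = 0.207).

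Selplg, encoding the selectin ligand PSGL-1 (chr5:113818536-113832644, minus strand), was called in none of the 5 tests. Its group means were 150 ± 4.16, 136 ± 10.2, 117 ± 15.4 and 126 ± 7.24 CPM. Its largest difference was with 5-FU in Tespa1+/+ LSKs, where 151, 145 and 154 CPM stood beside 118, 132 and 101 CPM without overlap (log2 fold change -0.36, SE 0.10, edgeR adjusted p = 0.0525). That value passed the threshold without the second Tespa1+/+ library after 5-FU (adjusted p = 0.0313) and under 4 of the 7 other fits, with DESeq2, with no filter, with at least 10 counts in every library and with all 12 libraries in 1 fit (adjusted p from 0.00732 to 0.0888 over the 7).

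Cd47, the signal against engulfment (chr16:49855618-49915010, plus strand), was lower in Tespa1-/- libraries at both times, with no overlap. Untreated libraries read 378, 417 and 420 CPM in Tespa1+/+ and 346, 352 and 345 CPM in Tespa1-/- LSKs. After 5-FU the values were 374, 361 and 370 CPM and 343, 323 and 340 CPM. The untreated difference was small and called (0.859-fold, log2 fold change -0.22, SE 0.05, edgeR adjusted p = 0.0460), and the one after 5-FU was not (-0.14, interval -0.24 to -0.03, edgeR adjusted p = 0.0843). The untreated call was lost without any 1 of 5 of the 6 libraries, all but the first Tespa1+/+ library, with adjusted p from 0.0101 to 0.166 over the 6. The responses to 5-FU differed between genotypes by 0.09 (interval -0.06 to 0.23).

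The other genes of these pathways were taken from 6 lists, whose counts stand beside 1.64% of all genes called higher and 3.59% lower between the untreated genotypes, and 7.34% higher and 5.78% lower after 5-FU. Among other integrin subunits, 14 of 16 could be tested between the untreated genotypes, with Itga2b, the platelet α chain, higher and Itga3, a laminin receptor chain, lower. Itga2b had means of 31.0 ± 2.90 CPM (Tespa1+/+) and 54.4 ± 0.860 CPM (Tespa1-/-) (log2 fold change 0.81, edgeR adjusted p = 0.00196), and it is also a megakaryocyte marker. The sum of that list, 41.6 to 48.0 and 72.7 to 75.4 CPM in these groups, is mostly Itga2b itself, and none of the other 5 that could be tested was called. Among these Pf4 was at 3.21 and 5.48 CPM, and the part of megakaryocyte RNA was not tested. Itga3 was at 5.01 ± 1.005 and 1.21 ± 0.762 CPM (-2.05, edgeR adjusted p = 0.0330). After 5-FU, 6 of 15 subunits tested were higher in Tespa1-/- LSKs and 1 lower, with a list median of 0.51 beside -0.01 for all genes. The highest were Itgb2, given above, and Itga1, a collagen receptor chain, at 2.20 ± 0.429 and 6.09 ± 0.660 CPM (1.46, edgeR adjusted p = 0.00785). Itgam, the α chain of myeloid cells, was higher at 32.4 ± 3.89 and 71.1 ± 6.14 CPM, Itgb3, a β chain of megakaryocytes and other cells, at 24.1 ± 5.15 and 44.8 ± 5.03 CPM, and Itga2b, as in untreated LSKs, at 84.0 ± 3.78 and 124 ± 2.92 CPM, all 3 named after their values were seen. In these groups the megakaryocyte markers, again mostly Itga2b, summed to 138 to 150 and 193 to 195 CPM, with Pf4 at 24.8 and 35.8 CPM (edgeR adjusted p = 0.0530), and the part of the megakaryocyte and neutrophil markers was not tested. Itga3 was the lower one, at 2.90 ± 1.28 and 0.620 ± 0.227 CPM (-2.22, edgeR adjusted p = 0.0240), and was thus called lower in Tespa1-/- LSKs in both comparisons. Itgb7, the alternative partner of the α4 chain, was among the 6 and is named here for that pairing after its values were seen: 29.4 ± 1.69 and 42.0 ± 2.52 CPM (0.51, edgeR adjusted p = 0.0124).

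In the list of integrin activation, which holds talin, kindlin and small GTPase switches, 1 of 21 genes was called between the untreated genotypes. That gene was Rap1b, a switch that turns integrins on, with 208 ± 7.41 CPM where Tespa1 was intact and 173 ± 1.81 CPM in the knockout (log2 fold change -0.26, edgeR adjusted p = 0.0213). After 5-FU 7 of 21 were higher and 1 lower in Tespa1-/- LSKs, with a median of 0.16. Arap3, a GTPase-activating protein, was at 51.7 ± 2.62 and 83.8 ± 2.61 CPM (0.69, edgeR adjusted p = 5.13e-04). Skap1, an adaptor of T-cell integrin activation, was near the limit of detection in Tespa1+/+ LSKs (0.163 ± 0.220 CPM) and read 3.18 ± 1.11 CPM in Tespa1-/- LSKs (edgeR adjusted p = 0.0138), and T and NK cell markers summed to 34.5 to 42.3 and 57.9 to 67.0 CPM in these groups. Nkg7 made up most of that, at 32.9 and 51.4 CPM, and Cd3e, the other one called, was at 0 and 0.919 CPM. Their part in it was not tested. Ptk2b, the focal adhesion kinase PYK2, was the lower one at 158 ± 4.14 and 134 ± 9.13 CPM (-0.24, edgeR adjusted p = 0.0430).

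Among chemoattractant receptors and ligands, S1pr1, the receptor that draws cells toward sphingosine-1-phosphate in blood, was lower in Tespa1-/- LSKs in both comparisons. It read 17.3 ± 2.36 CPM (Tespa1+/+) and 6.72 ± 1.77 CPM (Tespa1-/-) untreated (log2 fold change -1.36, edgeR adjusted p = 0.0117) and 25.6 ± 2.72 and 17.3 ± 1.07 CPM after 5-FU (-0.57, edgeR adjusted p = 0.0245). It was the only one of 11 tested that was called between untreated genotypes. After 5-FU 1 of 12 was higher, the oxysterol receptor Gpr183 (1.33, edgeR adjusted p = 0.0233), and 3 were lower. Dpp4, the surface peptidase that cleaves CXCL12, was among these at 83.5 ± 2.53 and 50.7 ± 1.28 CPM (-0.73, edgeR adjusted p = 2.98e-04). The transcript of CXCL12 itself, Cxcl12, was scarce, with means of 0.563 to 1.25 CPM over the 4 groups.

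Selectins and the enzymes that make their ligands gave 1 call of 13 between the untreated genotypes and 3 of 12 after 5-FU. Cd24a, a mucin-like ligand of P-selectin, was called in opposite directions: 234 ± 10.9 CPM in Tespa1+/+ against 170 ± 1.46 CPM in Tespa1-/- LSKs untreated (log2 fold change -0.45, edgeR adjusted p = 0.00201), and 295 ± 18.6 against 363 ± 14.2 CPM after 5-FU (0.29, edgeR adjusted p = 0.00972). Selp, encoding P-selectin, was lower after 5-FU at 35.6 ± 1.75 and 23.8 ± 1.07 CPM (-0.59, edgeR adjusted p = 0.00756).

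Among adhesion partners, 5 of 18 tested were lower in untreated Tespa1-/- LSKs and none higher, with a median of -0.25 beside 0.01 for all genes. Icam1, the ligand of LFA-1, fell from 89.3 ± 2.09 to 47.1 ± 2.67 CPM (log2 fold change -0.92, edgeR adjusted p = 2.72e-04), and the tetraspanin Cd81 from 84.7 ± 5.99 to 65.8 ± 4.65 CPM (-0.36, edgeR adjusted p = 0.0420). After 5-FU 7 of 18 were lower and 2 higher, with a median of -0.23. Icam1 was again lower (-0.41, edgeR adjusted p = 0.0330), by less than in untreated LSKs (interaction 0.52, edgeR adjusted p = 0.0297), and Cd34, Cd93 and Cd164 were likewise called lower in both comparisons. The lower ones included Cd34, the sialomucin that also marks LSKs, at 267 ± 7.10 and 156 ± 4.02 CPM (-0.78, edgeR adjusted p = 2.28e-05), and the junctional protein gene F11r (-0.86, edgeR adjusted p = 0.0411). The higher ones were the tetraspanins Cd63 (0.76, edgeR adjusted p = 0.00284) and Cd82 (0.49, edgeR adjusted p = 0.0163).

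In the list of Slit-Robo and CD47-SIRP genes, the partners of Robo4 and Cd47, Thbs1 was called in each comparison of genotypes, in opposite directions, and none of the other 9 tested was. Thbs1 encodes thrombospondin-1, a secreted ligand of CD47. Untreated, it read 19.7 ± 3.14 CPM (Tespa1+/+) and 3.65 ± 1.43 CPM (Tespa1-/-) (log2 fold change -2.43, edgeR adjusted p = 0.00303), and at 13.9 ± 1.72 and 30.8 ± 4.89 CPM after 5-FU (1.14, edgeR adjusted p = 0.00191).

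**Figure D4:**
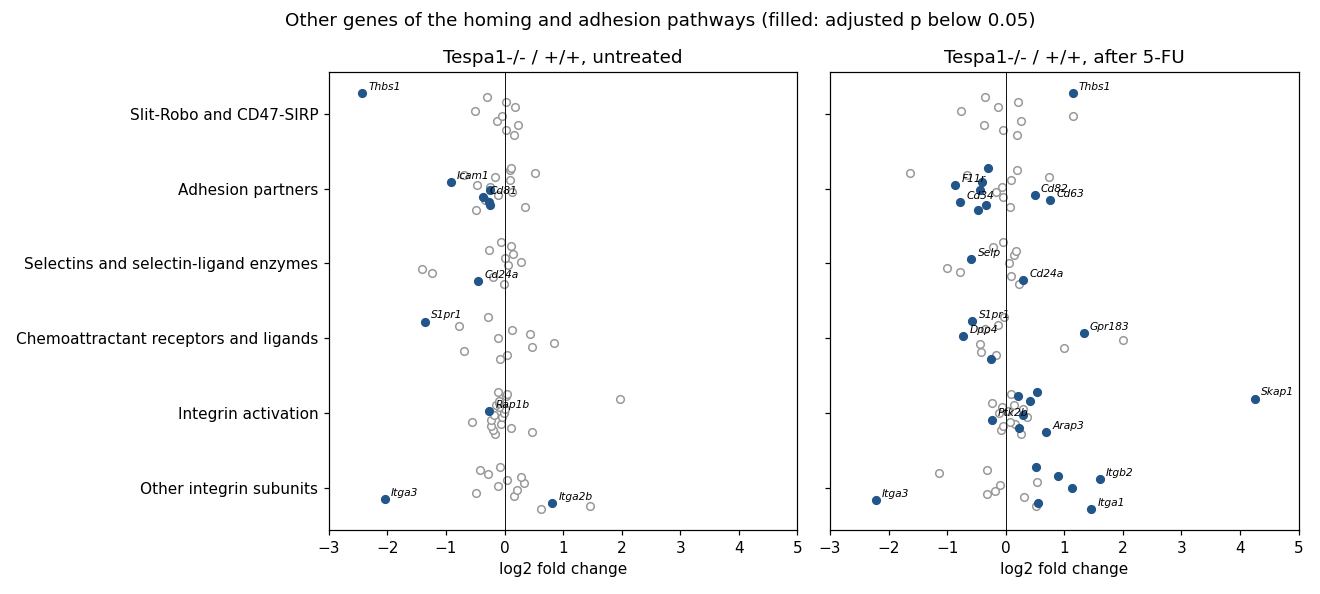
Log2 fold change of Tespa1-/- against Tespa1+/+ LSKs for the tested genes of the 6 pathway lists that are reported, untreated on the left and after 5-FU on the right, filled where the adjusted p is below 0.05, with the genes named by the rule labelled. Integrin subunits and integrin activation genes have 6 and 7 filled points right of 0 after 5-FU, and Thbs1 lies left of 0 untreated and right of it after 5-FU.

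Genes whose levels over the 12 libraries were among the most like those of the 3 most variable members were found by the mean absolute difference of centred log2(CPM + 1) values, among 9434 genes for Vcam1 and 9433 for the others. Only genes with a mean of at least 10 CPM over the 12 libraries were candidates, a level that Vcam1 itself did not reach. Adding 1 CPM before the log also shrinks fold changes at low levels such as that of Vcam1. For Vcam1 they were Cpox, an enzyme of heme synthesis, at 0.207, and Syne1, encoding a nuclear envelope protein, at 0.250. Cpox read 33.1 ± 4.39, 33.0 ± 0.675, 38.2 ± 1.82 and 123 ± 9.40 CPM over the 4 groups, so that it too stood apart in Tespa1-/- LSKs after 5-FU. For Cd44 they were Gm38399 at 0.0847 and Fos, an immediate early transcription factor gene, at 0.119. Fos read 1564 ± 18.3, 1225 ± 19.2, 869.8 ± 38.1 and 738 ± 30.0 CPM. For Itga6, Tifa, a signalling adaptor gene, is given, at 0.107. Tifa read 27.8 ± 1.02, 25.8 ± 1.96, 49.4 ± 2.29 and 52.9 ± 3.31 CPM. Over the 4 group means in place of the libraries, the near genes reported were Cpox and Itgb2 for Vcam1, Mtmr9 and Gm38399 for Cd44, and Dock9 for Itga6.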

How the data were processed

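RNA was extracted from sorted LSKs, and poly-A selected, stranded, paired-end libraries were sequenced on an Illumina instrument. Per the labels, CASAVA 1.8, HISAT2, StringTie and edgeR were used with GRCm38, without their roles or other versions. The authors deposited gene read counts and, beside them, FPKM values of the same libraries; whether strand was used in counting is not given in the sources used here. From the deposited counts, differences were tested with edgeR 4.0.16 (R 4.3.3) by quasi-likelihood F-tests after filterByExpr (minimum count 10) and TMM scaling, on the 6 libraries of each comparison or, for the interaction, on all 12, with Benjamini-Hochberg adjustment over all genes tested. CPM are TMM-scaled, and the intervals are the estimate plus or minus the t quantile times the SE. FPKM served only to rank levels between genes. The scripts were tested on simulated data.

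The 10 members and the pathway and marker lists were chosen with earlier results of these data known. Named were all members and, per pathway list and comparison of genotypes, at most the 2 largest rises and 2 largest falls among genes called with a mean of at least 1 CPM, and the 2 genes most like each of the 3 members that varied most. Promoters printed were to be those of members called alike in both comparisons of genotypes or, if none, of the 2 members with the smallest p after 5-FU. A few genes that these rules pick are not reported here. Groups came from the sample labels. Replicates differed by more than sampling noise (median chi-square 2.08 to 5.87 beside 0.455 for sampling alone), and within a group the CV of the members was 0.918% to 32.5% (median 5.73%). Gm26917, mt-Rnr1 and mt-Rnr2, linked to ribosomal RNA, took together 14.5% to 16.4% of counts. Alternatives tried were DESeq2 1.42.0, other scalings, filters and fits, the thresholds of the study, a replicate block and leaving out each library.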

Additional observations from a re-analysis of the deposited data

Results flagged for a closer look

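By the interaction term of the edgeR fit over all 12 libraries, 2 of the 10 members were called, beside 5.01% of all genes tested. The genotype difference was higher after 5-FU for Vcam1, beside 3.02% of genes, and lower for Robo4, beside 1.99%. For Vcam1 the log2 fold change of Tespa1-/- against Tespa1+/+ LSKs was higher after 5-FU than in untreated mice by 2.43 (SE 0.35, edgeR adjusted p = 0.00125), and it kept its call without each of the 12 libraries in turn (adjusted p from 9.16e-04 to 0.00585). For Robo4 it was lower by 0.99, a term of -0.99 (SE 0.25, edgeR adjusted p = 0.0399), which fell short of the threshold without any 1 of 10 of the 12 libraries (adjusted p from 0.0358 to 0.1001). In both, all 3 Tespa1-/- libraries after 5-FU lay outside the range of the 9 others. How many of all genes do so was not counted.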

How the results depend on the processing

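With 3 libraries a group, the calls on small differences depended on single libraries, and those on Vcam1, Cd44, Itga6, Robo4 and Cxcr4 that involve 5-FU, other than the Robo4 interaction, did not, except that Cxcr4 with 5-FU in Tespa1-/- LSKs fell short of the fold threshold of the study. Between untreated genotypes the 3 members called became 0 to 3 on leaving out each library (0 without the second or the third Tespa1-/- library, where all 3 kept an unadjusted p below 0.05; DESeq2 called 3) and 0 under the thresholds of the study, and the 892 genes called became 1427 with DESeq2 and 338 to 808 on leaving out each library. Of the 3 calls, that of Cd47 was also lost with RLE size factors (edgeR adjusted p = 0.0513) and with library totals (0.0529). With 5-FU in Tespa1+/+ LSKs the 1352 genes called became 2062 with DESeq2, 2113 with all 12 libraries in 1 fit and 783 to 1102 on leaving out each library. In the interaction the 2 members called became 1 with no filter on low counts and 1 to 2 on leaving out each library, and the 936 genes called became 1535 with DESeq2, 1941 under the thresholds of the study and 573 to 862 on leaving out each library. The call of Itga4 between genotypes after 5-FU was also lost with no filter (adjusted p = 0.154) and with all 12 libraries in 1 fit (0.0923), and Itgal with 5-FU in Tespa1-/- LSKs likewise (0.0678 and 0.0573). With library totals, Cd47 between genotypes after 5-FU was called (0.0419). Signs turned for small differences that were not called: with library totals in place of TMM, Itgal between genotypes after 5-FU was -0.011, and with 5-FU in Tespa1+/+ LSKs Itgb1 was 0.0067 and Robo4 0.027. On leaving out each library, Vcam1 between untreated genotypes ran from -0.15 to 0.32, Itga4 from -0.0072 to 0.0899 and Itga6 from -0.0808 to 0.155, between genotypes after 5-FU Itgal ran from -0.0018 to 0.0388 and Itga6 from -0.0820 to 0.0044, with 5-FU in Tespa1+/+ LSKs Itgb1 ran from -0.0942 to 0.0238, Vcam1 from -0.0338 to 0.429 and Robo4 from -0.193 to 0.0734, and in the interaction Itgal ran from -0.10 to 0.0060 and Itga6 from -0.197 to 0.0389. The cause of these changes was not tested.

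Replicate numbers recur in every group, but same-numbered libraries did not deviate together: 0 of 18 correlations passed 0.1 (-0.14 to 0.06), so the numbers pair nothing. With the replicate number as a block the members called were 1 between untreated genotypes and in the interaction and 2, 3 and 5 between genotypes after 5-FU and with 5-FU in Tespa1+/+ and Tespa1-/- LSKs, and all genes called were 454, 742, 1706, 956 and 2833 in that order. Vcam1 had 45 to 85 counts in 9 libraries, and its 95% intervals in Tespa1+/+ LSKs and between untreated genotypes are over 1 log2 unit wide.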
